A study of Mus musculus with 4 samples.

Results

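The genes described here are 9 globin and erythroid genes, chosen by name from the 34682 gene rows of the count table: the embryonic globins Hbb-y, Hbb-bh1 and Hba-x, the adult alpha-globins Hba-a1 and Hba-a2, and the erythroid genes Alas2, Epor, Klf1 and Gata1. All 9 have a row, and 7 of them passed the filter on low counts. To learn what Sall1 changes in the early ovary, RNA was sequenced from E13.5 mouse ovaries, in 2 libraries of Sall1-overexpressing mutants and 2 of the wild type. In the mutant, a BAC in which Sall1 replaces Wt1 puts the transgene under Wt1 control, active in gonadal somatic cells. The BAC, which also holds a neomycin-kanamycin resistance cassette, was inserted by PiggyBac into female embryonic stem cells of C57BL/6J or mixed C57BL/6J and 129 origin, G418-resistant clones were picked, and aggregation of such cells with morulae gave the mice. The sources used here do not say how many clones or animals stand behind a library. The mutant column names read MutSall1N2, and what N2 stands for is not given. The controls are called littermates in one place and CD1 gonads in another, and B6 stands in the column names of the wild type, so it is not settled whether the groups differ in strain, and such a difference cannot be told apart from the transgene.

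Red blood cells of the mouse embryo come in a primitive wave from the yolk sac and a definitive wave that matures in the fetal liver. Primitive cells carry the embryonic globins, epsilon-y (Hbb-y) and beta-h1 (Hbb-bh1) on the beta side and zeta (Hba-x) on the alpha side, and adult alpha-globin as well, whereas definitive cells carry adult alpha- and beta-globin. Gata1 and Klf1 are the transcription factors that switch on globin, haem and red cell membrane genes, Epor transmits the erythropoietin signal, and Alas2 starts haem synthesis in red cells. The ovary is not a site of red cell formation, but its vessels carry blood.

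The libraries held between 11036313 and 17869840 counts, and a count of 3, taken as the floor, was worth 0.17 to 0.272 CPM, which here are counts made comparable across library sizes by TMM. Sall1 itself stood at 113 and 96.0 CPM in the mutant libraries and at 16.2 and 12.6 CPM in the wild-type libraries, higher in both mutant libraries. The 11 ovarian somatic markers summed to 1534 to 1714 CPM and the 8 germ cell markers to 1742 to 1909 CPM. The 9 erythroid genes took 0.317% and 0.0883% of all counts in mutant libraries 1 and 2, and 0.349% and 0.166% in wild-type libraries 1 and 2. In both genotypes the library numbered 1 thus held the larger share. In bulk RNA, fewer blood cells and less erythroid RNA per cell cannot be told apart.

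Whether an adult alpha-globin read can be told from an embryonic one depends on their sequences, so the first 90 coding bases of the alpha genes, read from the NCBIM37 transcripts, are shown with each base that differs from Hba-a1 in capitals.
Hba-a1: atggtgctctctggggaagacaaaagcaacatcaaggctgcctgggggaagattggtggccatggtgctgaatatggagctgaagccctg
Hba-a2: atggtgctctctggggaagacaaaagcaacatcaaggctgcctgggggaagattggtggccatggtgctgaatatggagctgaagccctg
Hba-x: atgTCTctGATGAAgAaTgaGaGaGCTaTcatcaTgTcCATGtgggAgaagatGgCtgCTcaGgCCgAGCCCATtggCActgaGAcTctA
Hba-a1 and Hba-a2 were identical over this stretch and differed at 1 of 429 coding positions, whereas Hba-x differed from Hba-a1 at 44 of these 90 bases and at 163 of 429 coding positions. Of all 50-base windows of the transcript, 67.5% in Hba-a1 and 86.9% in Hba-a2 also occurred in the other adult gene. In Hba-x, Hbb-y, Hbb-bh1, Epor, Klf1 and Gata1, 0 windows of that length occurred in another gene.

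The embryonic beta-globin Hbb-y (chr7:111000259-111001754, minus strand, NCBIM37) had the highest level of the 9 genes in all 4 libraries, also per transcript length. It had 30443 and 11639 counts in mutant libraries 1 and 2, and 51690 and 26263 counts in wild-type libraries 1 and 2, equal to 2762 and 774 CPM in the mutant and 3004 and 1488 CPM in the wild type. Both libraries numbered 1 lay above both numbered 2, while the genotypes overlapped. The group means were 1768 ± 1406 CPM (SD, n = 2) in the mutant and 2246 ± 1072 CPM (SD, n = 2) in the wild type, a log2 fold change of -0.35 (SE 0.56, adjusted p = 1.00 in edgeR's quasi-likelihood test, after Benjamini-Hochberg adjustment).

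Hbb-bh1 (chr7:110990150-110991678, minus strand), the other embryonic beta-globin of the same cluster, stood at 27.2 and 6.18 CPM in mutant libraries 1 and 2 and at 25.8 and 16.3 CPM in wild-type libraries 1 and 2. Again the libraries numbered 2 were the low ones in both genotypes, and the highest and the lowest value were both mutant. Hba-x (chr11:32176400-32178116, plus strand), the embryonic alpha-globin, had 311 and 71.4 CPM in the mutant and 356 and 134 CPM in the wild type, in the same order of libraries as Hbb-y. Mutant over wild type, the log2 fold change was -0.36 for Hbb-bh1 (SE 0.58) and -0.37 for Hba-x (SE 0.67), and neither passed the test (adjusted p = 1.00 for both, edgeR's quasi-likelihood test).

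**Figure D1:**
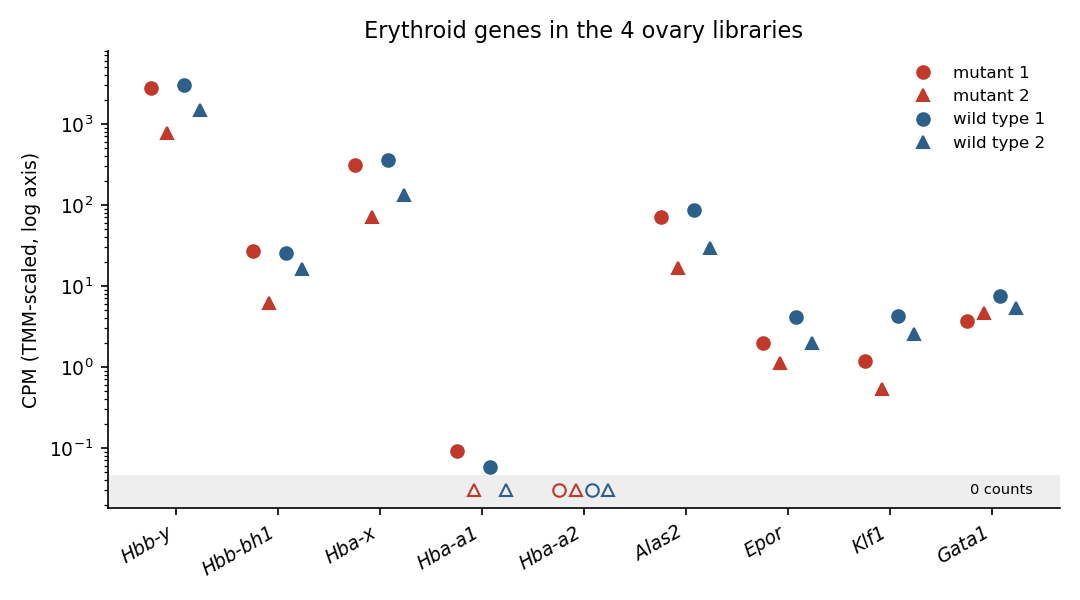
Level of each of the 9 genes in each library, in TMM-scaled CPM on a log axis; red marks are mutant, blue marks wild type, circles replicate number 1 and triangles number 2, and open marks in the grey band are libraries with 0 counts. For Hbb-y, Hbb-bh1, Hba-x, Alas2 and, narrowly, Epor both circles lie above both triangles, while for Klf1 and Gata1 both blue marks lie above both red ones.

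The adult alpha-globins were all but missing from the counts. Hba-a1 (chr11:32183511-32184465, plus strand) had 1 count in mutant library 1, 1 in wild-type library 1 and 0 in the others, and Hba-a2 (chr11:32196489-32197301, plus strand) had 0 counts in all 4 libraries, which is below the floor everywhere. Hba-x lies before both genes on the same strand. The ratio of embryonic to adult alpha-globin counts was therefore 3425 in mutant library 1 (exact 95% interval 614 to 135000) and 6131 in wild-type library 1 (1100 to 242000). Against the floor of 3 counts per library, Hba-x was at least 358-fold higher in mutant library 2 and at least 790-fold higher in wild-type library 2. These intervals and bounds cover counting error only, and no comparison of the ratio between genotypes was possible. The table lists Hba-a1 and Hba-a2 a second time, as rows named copy2, which held 0 counts in every library; of the 1781 rows so named, 1451 were at 0 throughout. The adult beta-globins Hbb-b1, Hbb-b2, Hbb-bs and Hbb-bt also had 0 counts in all 4 libraries, and Hbb-b1 and Hbb-b2 share 52.3% and 58.3% of their 50-base windows. The part that shared sequence and repeated gene rows play in these low counts was not tested, so the ratio describes counted reads and not the amounts of the RNAs.

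Among the remaining globins, Hbb-bh2 had 2 counts in mutant library 2 and 0 in the others. The theta-globin Hbq1b had 12 and 3 counts in mutant libraries 1 and 2 and 29 and 15 in wild-type libraries 1 and 2, and Hbq1a, with which it shares 39.8% of its 50-base windows, had 5, 1, 15 and 4 counts in the same order. Hbq1b, the only one of the 7 other globin genes in the table that could be tested, had a log2 fold change of -1.05 in the mutant (SE 0.76, adjusted p = 1.00, edgeR's quasi-likelihood test). Its libraries numbered 2 were the lower ones in both genotypes, as for the embryonic globins.

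Alas2 (chrX:146981918-147005181, plus strand) encodes the red cell form of the first enzyme of haem synthesis. It stood at 71.8 and 16.5 CPM in mutant libraries 1 and 2 and at 87.4 and 29.7 CPM in wild-type libraries 1 and 2. The order of the libraries was that of Hbb-y and Hba-x, with overlap of the genotypes (log2 fold change -0.43, SE 0.69, adjusted p = 1.00, edgeR's quasi-likelihood test). Of its 50-base windows 13.2% lie in sequence shared with Apex2, which overlaps it on the other strand, and whether the counting kept strands apart is not given in the sources used here.

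Epor (chr9:21763343-21768020, minus strand), the erythropoietin receptor, had only 22 and 17 counts in the mutant and 72 and 35 in the wild type, or 2.00 and 1.13 CPM against 4.18 and 1.98 CPM. Mutant library 1 and wild-type library 2 were nearly level, so the genotypes overlapped (log2 fold change -0.997, SE 0.50, adjusted p = 0.990, edgeR's quasi-likelihood test).

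Klf1 (chr8:87425827-87429194, plus strand), the erythroid Krüppel-like factor that binds CACCC boxes, had the largest difference between genotypes of the 7 tested genes. It had 13 and 8 counts in mutant libraries 1 and 2 and 73 and 45 in wild-type libraries 1 and 2, equal to 1.18 and 0.53 CPM in the mutant and 4.24 and 2.55 CPM in the wild type. Both mutant libraries lay below both wild-type libraries. The means were 0.856 ± 0.458 CPM (SD, n = 2) and 3.40 ± 1.20 CPM (SD, n = 2), a log2 fold change of -2.02 (SE 0.50), which did not pass after adjustment over all genes (adjusted p = 0.437, edgeR's quasi-likelihood test).

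Gata1 (chrX:7536386-7555197, minus strand), the founding GATA factor of the erythroid and megakaryocyte lineages, stood at 3.72 and 4.59 CPM in mutant libraries 1 and 2 and at 7.56 and 5.33 CPM in wild-type libraries 1 and 2. Both mutant libraries were again below both wild-type libraries, by a smaller margin (log2 fold change -0.63, SE 0.29, adjusted p = 0.938, edgeR's quasi-likelihood test). Unlike the globins, mutant library 2 was here above mutant library 1.

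Per length of transcript, Hbb-y led with 4179, 1170, 4545 and 2251 RPKM-type units (CPM per kilobase of the longest coding transcript) in mutant libraries 1 and 2 and wild-type libraries 1 and 2. Hba-x followed at 388, 89.1, 445 and 168, and Hbb-bh1 at 44.3, 10.1, 42.0 and 26.6. Alas2 was close to Hbb-bh1, at 35.2, 8.09, 42.9 and 14.6, and was the lower of that pair in 3 of 4 libraries. Gata1, Klf1 and Epor closed the order, at 1.96, 2.41, 3.97 and 2.80, at 0.769, 0.347, 2.77 and 1.66, and at 1.09, 0.618, 2.29 and 1.08 in the same libraries. Klf1 was above Epor in 2 of the 4, so neither this pair nor Hbb-bh1 and Alas2 could be put in order. Every other gene was lower than its predecessor in all 4 libraries.

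Across the set, 0 of the 7 tested genes differed between mutant and wild type at an adjusted p under 0.05 by edgeR's quasi-likelihood test, where 9 of 15442 genes, 0.0583%, did so. At an unadjusted p under 0.05 there was 1 of the 7, Klf1, against 878 of all 15442 genes, and DESeq2 likewise called 0 after adjustment and 1 before it. A fit that also held the replicate number called 4 of the 7, Hbb-y, Hba-x, Alas2 and Klf1, all lower in the mutant (log2 fold changes -0.53, -0.54, -0.53 and -2.02, edgeR adjusted p = 0.0476, 0.0277, 0.0362 and 0.00852). The same fit called 385 of all 15442 tested genes, 205 lower and 180 higher in the mutant. The labels do not say that equal numbers mark a shared litter or day, although the library identifiers in the column names are consecutive within each number. In 2 of the 7, Klf1 and Gata1, both mutant libraries lay below both wild-type libraries, a pattern that 15.1% of all tested genes showed. The log2 fold changes of Hbb-y, Hbb-bh1, Hba-x and Alas2 turned positive without mutant library 2 (0.30, 0.37, 0.34 and 0.29) and without wild-type library 1 (0.24, 0.0070, 0.50 and 0.55). Without mutant library 1 they were -1.54, -1.77, -1.78 and -1.83, and Hbb-y and Hbb-bh1 then passed edgeR's quasi-likelihood test (adjusted p = 0.0401 and 0.0168). Those of Klf1, Epor and Gata1 stayed negative whichever library was left out. The labels do not say whether the 2 libraries of a group came from separate animals, so the p-values measure only the spread between these libraries.

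The larger differences among the embryonic globins and Alas2 ran along the replicate numbers of the labels. In a fit with genotype and replicate number, 4 of the 7 tested genes were lower in number 2 at an adjusted p under 0.05 by edgeR's quasi-likelihood test, where 2.73% of all tested genes were. Alas2 was lower by a log2 fold change of -1.81 (SE 0.13, adjusted p = 4.76e-07), Hba-x by -1.75 (SE 0.12, adjusted p = 4.76e-07), Hbb-y by -1.42 (SE 0.14, adjusted p = 1.73e-05) and Hbb-bh1 by -1.30 (SE 0.24, adjusted p = 0.00468). Epor, Klf1 and Gata1 did not pass, with -0.97 (SE 0.34, adjusted p = 0.137), -0.84 (SE 0.36, adjusted p = 0.238) and -0.16 (SE 0.26, adjusted p = 0.815). With the replicate number as the only factor, 0 of the 7 passed after adjustment and 4 had an unadjusted p under 0.05. In 5 of the 7, the 4 that passed and Epor, both libraries numbered 2 lay below both numbered 1, against 23.5% of all tested genes. For Epor the margin was narrow, with 2.00 CPM in mutant library 1 and 1.98 CPM in wild-type library 2.

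Within the genotypes the gap between the numbers was wider in the mutant for the globins. Library 1 exceeded library 2 in Hbb-y by 3.57-fold in the mutant and 2.02-fold in the wild type, in Hba-x by 4.35-fold and 2.65-fold, in Alas2 by 4.35-fold and 2.94-fold, and in Hbb-bh1 by 4.40-fold and 1.58-fold. With 1 library in each cell of the design, whether these gaps differ could not be tested. Read the other way, mutant over wild type, the log2 difference was -0.12 within number 1 and -0.94 within number 2 for Hbb-y, and -0.20 and -0.91 for Hba-x. Hbb-bh1 had 0.08 within number 1 and -1.40 within number 2, so its direction was not the same in the 2 pairs. Klf1 had -1.85 within number 1 and -2.26 within number 2, the largest differences of the 7 genes in both, and Gata1 had -1.02 and -0.22.

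**Figure D2:**
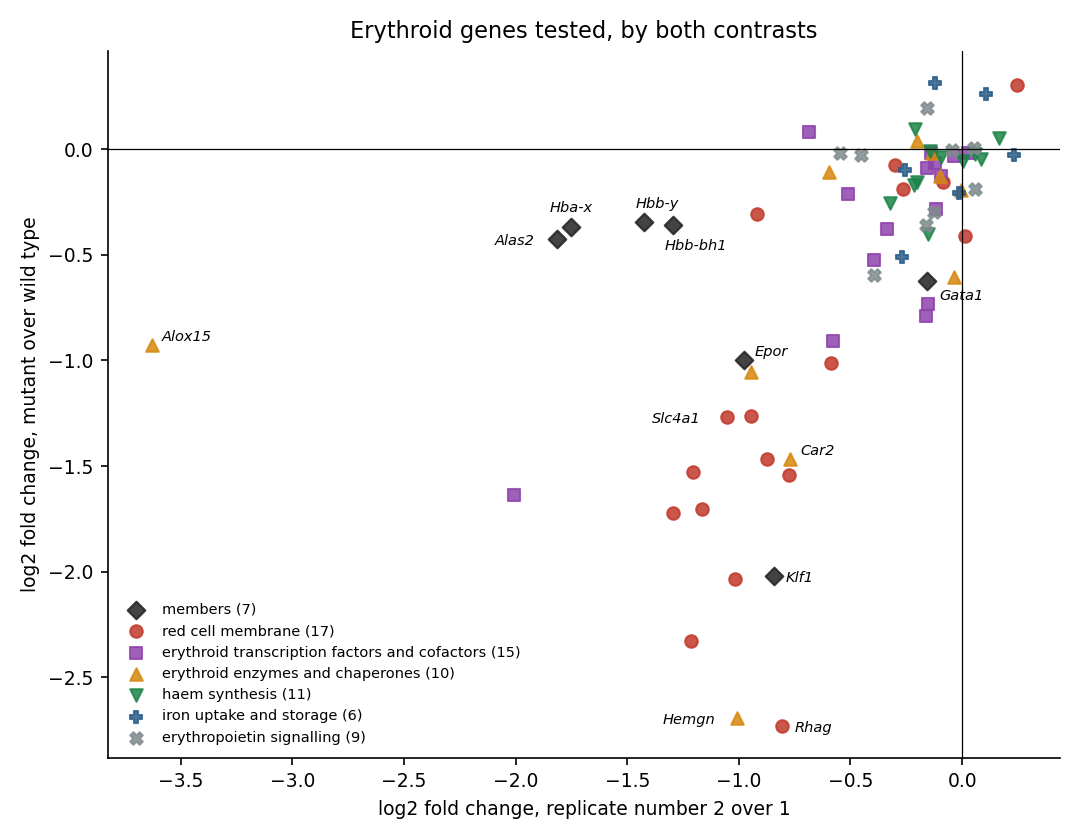
Log2 fold change of mutant over wild type (y axis) against replicate number 2 over 1 (x axis) for the 7 tested genes of the set and for 68 tested genes of 6 other erythroid lists, with one mark shape for each list; both axes use the same 4 libraries. Hbb-y, Hbb-bh1, Hba-x and Alas2 lie far to the left with small genotype differences, between -0.35 and -0.43, while Klf1 lies low at -2.02 beside red cell membrane genes.

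A ratio within a library needs no library size, and Hbb-y was counted deeply enough to serve as the denominator, a choice made after the data had been seen because the adult alpha-globins could not serve. Per 1000 Hbb-y counts, Hba-x had 113 and 92.3 counts in mutant libraries 1 and 2 and 119 and 90.2 in wild-type libraries 1 and 2, a span of 1.31-fold between the highest and the lowest library. Hbb-bh1 had 9.85 and 7.99 against 8.59 and 10.97, and Alas2 26.0 and 21.3 against 29.1 and 19.99, spans of 1.37-fold and 1.46-fold. Relative to Hbb-y, the other embryonic globins and Alas2 thus stayed within 1.46-fold across the 4 libraries, although their levels varied by several fold. Mutant and wild type overlapped in each ratio. The ratios of Hba-x and Alas2 were lower in both libraries numbered 2 than in both numbered 1 (log2 differences -0.34 and -0.41). For Hbb-bh1 the numbers overlapped.

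The regulators did not keep to these proportions. Klf1 had 0.427 and 0.687 counts per 1000 Hbb-y counts in mutant libraries 1 and 2 and 1.41 and 1.71 in wild-type libraries 1 and 2. Both mutant values lay below both wild-type values, by 2.87-fold in the geometric means (log2 difference -1.52, exact permutation p = 0.33, two-sided, the smallest that 2 libraries against 2 can give). Gata1 had 1.35 and 5.93 against 2.51 and 3.58, so the mutant libraries were the lowest and the highest, and Epor had 0.723 and 1.46 against 1.39 and 1.33. Of the 6 ratios only that of Klf1 separated the genotypes.

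**Figure D3:**
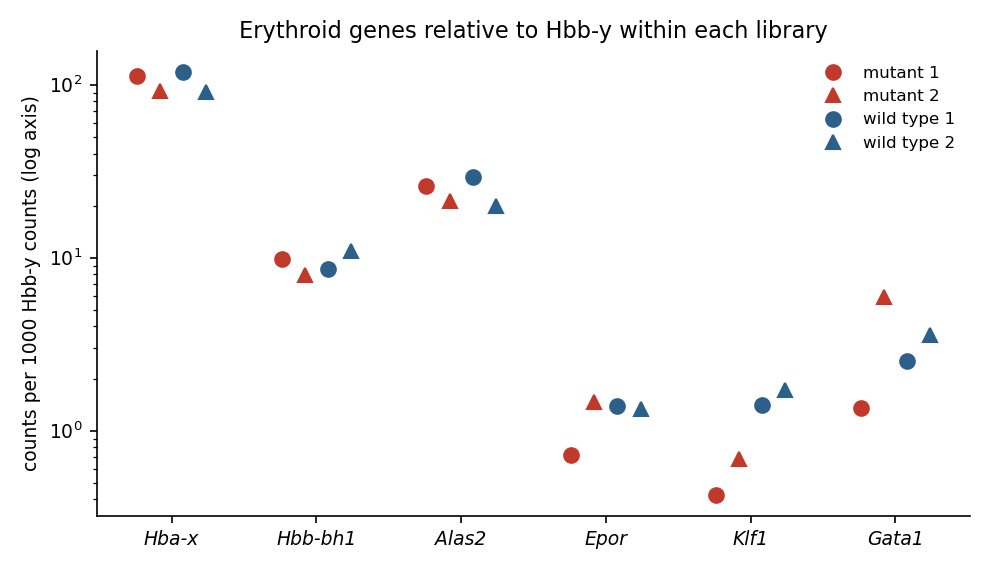
Counts of 6 genes per 1000 Hbb-y counts in the same library, on a log axis, with red marks for mutant, blue for wild type, circles for replicate number 1 and triangles for number 2. Hba-x spans only 90.2 to 119, whereas both red marks of Klf1, at 0.427 and 0.687, lie below both blue ones, at 1.41 and 1.71.

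Hbb-y, Hba-x and Alas2 kept similar proportions, whereas Klf1 was lower relative to Hbb-y in both mutant libraries. Like the other genes named, Klf1 was lower in number 2 within each genotype. The 130 bases before the transcription start of these genes are shown from RefSeq (GRCm38.p6), in which 8 of the 9 genes were matched. Capitals mark letters of 4 motifs. The GATA motif was searched as AGATAA, with T also allowed in the first place and G in the last, and the CACCC-like run as CCNCNCCC. These motifs and CCAAT were searched on both strands with overlapping matches merged, and TATAAA on the sense strand.
Hbb-y, chr7:103853208-103853337 (minus strand): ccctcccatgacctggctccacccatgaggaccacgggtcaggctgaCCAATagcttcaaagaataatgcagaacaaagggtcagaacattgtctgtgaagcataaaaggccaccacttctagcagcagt
Hba-x, chr11:32276470-32276599 (plus strand): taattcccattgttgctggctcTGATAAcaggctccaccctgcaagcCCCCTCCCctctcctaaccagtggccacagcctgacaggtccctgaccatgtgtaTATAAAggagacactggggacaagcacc
Alas2, chrX:150547287-150547416 (plus strand): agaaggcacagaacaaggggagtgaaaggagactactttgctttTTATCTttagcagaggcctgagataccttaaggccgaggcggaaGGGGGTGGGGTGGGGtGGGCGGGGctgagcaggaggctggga
Klf1, chr8:84901852-84901981 (plus strand): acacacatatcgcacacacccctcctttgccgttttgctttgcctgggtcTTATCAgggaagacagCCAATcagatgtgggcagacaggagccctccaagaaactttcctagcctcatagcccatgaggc
The 130 bases of Hba-x held a GATA motif, a CACCC-like run and TATAAA, those of Alas2 a GATA motif and 2 CACCC-like stretches, those of Klf1 a GATA motif and CCAAT, and those of Hbb-y CCAAT. The letters CACCC also stand in lower case in the stretches of Hbb-y, Hba-x and Klf1, where CCNCNCCC does not match them. Within 250 bases before the start, 7 of the 8 matched genes held a GATA motif, Gata1 being the exception, and 26.5% of all 32851 promoters in the table did. CCNCNCCC occurred in 4 of the 8 and in 45.9% of all promoters, CCAAT in 4 of the 8 and in 33.8%, and TATAAA in 1 of the 8, Hba-x, and in 7.6%. Hba-a1 and Hba-a2 were counted separately, although their stretches are near copies of each other. They held GATA at -183 and -186 and CCAAT at -88 and -91. These matches describe letters and not bound sites.

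The 7 lists of other erythroid genes held 82 genes, of which 80 are in the table and 69 were tested. In the fit that also held the replicate number 17 were called, all lower in the mutant. That fit called 205 of all 15442 tested genes lower and 180 higher. With genotype as the only factor, 0 of the 69 were called between the genotypes by edgeR's quasi-likelihood test. At an unadjusted p under 0.05, 20 of the 69 were lower in the mutant and 0 higher, where 422 of all tested genes were lower and 456 higher. In 33 of the 69, 47.8%, both mutant libraries lay below both wild-type libraries, against the 15.1% given above. DESeq2 called 3 of them after adjustment, all lower in the mutant. Among them were Rhag (DESeq2 adjusted p = 0.0210), the Rh-associated glycoprotein, and Car2 (DESeq2 adjusted p = 0.00210), a carbonic anhydrase. Rhag had 17 and 3 counts in mutant libraries 1 and 2 and 104 and 86 in wild-type libraries 1 and 2. Its value in mutant library 2 was thus at the floor of 3 counts.

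The red cell membrane genes held more of these lower values than any other of the lists. In 13 of 17 tested, both mutant libraries were below both wild-type libraries, 10 had an unadjusted p under 0.05, and the median log2 fold change was -1.27, while the median of all tested genes was -0.00088. Slc4a1, the anion exchanger band 3, stood at 45.6 and 12.0 CPM in mutant libraries 1 and 2 and at 78.3 and 58.2 CPM in wild-type libraries 1 and 2. It was lower in each mutant library than in each wild-type library, but did not pass edgeR's quasi-likelihood test (log2 fold change -1.27, adjusted p = 0.857). Epb4.1, the most abundant of the list and not restricted to red cells, had 209, 162, 212 and 179 CPM in mutant libraries 1 and 2 and wild-type libraries 1 and 2, with overlap.

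The other lists had smaller median differences. Haem synthesis had a median log2 fold change of -0.049 with 1 of 11 tested genes separated lower, and its most abundant gene Alad, which every cell uses, had a log2 fold change of 0.05. Iron uptake and storage had a median of -0.062, with 2 of 6 genes separated lower and 2 higher, and the ferritin chains Ftl1 and Fth1 had -0.10 and -0.03. Of 15 transcription factors and cofactors 7 were separated lower (46.7%, median -0.21), of 10 enzymes and chaperones 6 (60%, median -0.40), and of 9 genes of erythropoietin signalling 4 (44.4%, median -0.027), while Epo itself had 0 counts. The share was 9.09% for haem synthesis, 33.3% for iron uptake and storage and 15.1% for all tested genes.

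Relative to Hbb-y, several of these genes were also lower in both mutant libraries. These ratios were chosen after their values had been seen and carry no test. Slc4a1 had 16.5 and 15.5 counts per 1000 Hbb-y counts in mutant libraries 1 and 2 and 26.1 and 39.1 in wild-type libraries 1 and 2. Hemgn, a nuclear protein of blood-forming cells, had 1.08 and 0.344 against 3.77 and 5.75.

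By replicate number, 12 of the 69 other erythroid genes were lower in number 2 at an adjusted p under 0.05 in the fit with genotype, against 2.73% of all tested genes, and 0 were higher. Among them were the membrane genes Slc4a1, Epb4.1, Rhd, Kel and Ermap, the transcription factor Gfi1b and the enzymes Car2, Bpgm and Alox15. Socs2 and Pim1, which erythropoietin induces, were also among them. Gfi1b had 12 and 1 counts in mutant libraries 1 and 2 and 43 and 15 in wild-type libraries 1 and 2. The count of 1 is below the floor of 3. Alox15, a lipoxygenase listed with the erythroid enzymes, had the largest difference of the 12 (log2 fold change -3.63, adjusted p = 5.20e-06, edgeR's quasi-likelihood test). It stood at 6.80 and 0.731 CPM in mutant libraries 1 and 2 and at 13.1 and 0.850 CPM in wild-type libraries 1 and 2. Which cells its reads came from was not tested. None of the haem synthesis, iron or remaining globin genes passed, although 3, 3 and 1 of them had an unadjusted p under 0.05.

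Markers of other cells moved with the replicate numbers too. The 7 fetal liver hepatocyte markers summed to 99.6 and 15.4 CPM in mutant libraries 1 and 2 and to 493 and 5.55 CPM in wild-type libraries 1 and 2, and 7 of 7 passed as lower in number 2. Alb, serum albumin, had 31.8 and 5.32 CPM against 165 and 2.04 CPM, and Afp, alpha-fetoprotein, 51.7 and 7.58 CPM against 268 and 2.21 CPM. None of the 7 was at 0 in every library. Within number 2 the liver sum was higher in the mutant, while Hbb-y, Hba-x and Alas2 were lower there. That sum rests largely on Alb and Afp. Ttr, Fgb and Serpina1a had 4, 2 and 4 counts in mutant library 2 and 1, 1 and 4 in wild-type library 2, against a floor of 3.

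The 14 macrophage markers summed to 169 and 84.2 CPM in the mutant and 205 and 85.1 CPM in the wild type, with 3 of 13 tested, C1qa, Mrc1 and Lyz2, lower in number 2. Adgre1, which encodes F4/80, had 0 counts in all 4 libraries. The 9 megakaryocyte and platelet markers summed to 8.89 and 7.24 CPM in the mutant and 29.1 and 10.3 CPM in the wild type, with Pf4 lower in number 2. Endothelial markers summed to 609 to 697 CPM with 0 of 15 passing by replicate number (1 at an unadjusted p under 0.05). In 6 of the 15, 40%, both mutant libraries lay below both wild-type libraries, beside 47.8% of the other erythroid genes and 15.1% of all genes tested. The part that blood, liver or macrophage RNA carried along with the ovary plays in the differences of the erythroid genes was not tested.

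**Figure D4:**
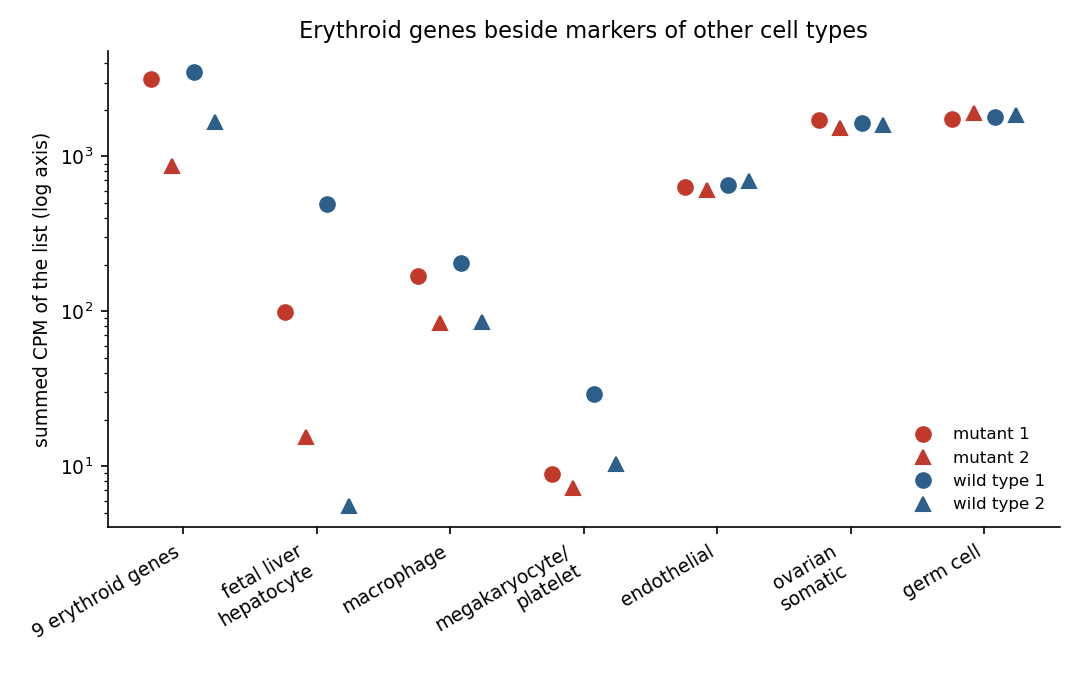
Summed CPM of the 9 erythroid genes and of 6 marker lists in each library, on a log axis, with red marks for mutant, blue for wild type, circles for replicate number 1 and triangles for number 2. The erythroid, liver and macrophage sums are higher in both libraries numbered 1, while the endothelial, ovarian somatic and germ cell sums stay within 609 to 697, 1534 to 1714 and 1742 to 1909 CPM.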

How the data were processed

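RNA from 2 Sall1 mutant and 2 wild-type E13.5 ovary libraries was analysed. The authors deposited raw read counts per gene, without normalization or pooling. According to the submitters' processing notes and the paper's methods, reads were aligned with STAR 2.6.1d to mm9 and counted with summarizeOverlaps. By default that function leaves out a read that falls on overlapping gene models. Whether this lowered genes listed more than once was not tested. The annotation and the handling of strands and multi-mapping reads are not given in the sources used here. Groups and replicate numbers came from the sample titles, and 0 columns were left unused.

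Counts of 34682 rows (11036313 to 17869840 per library) were tested in R 4.3.3 with edgeR 4.0.16 (TMM, filterByExpr, quasi-likelihood F-test, Benjamini-Hochberg over 15442 genes, threshold 0.05), with genotype as the only factor. A fit with genotype and replicate number tested the numbers. The fits were tested on simulated data, with and without a replicate effect drawn independently for each gene. A shift shared by a set of genes was not simulated. The floor of 3 counts covers counting error only. Positions and lengths came from GENCODE M1 on NCBIM37, the Ensembl name of mm9, and promoters from RefSeq, GRCm38.p6. Of the 9 genes, Hbb-bh1 was not matched there.

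The 9 genes and the lists were chosen with earlier results of these data known. The genes named are the 9, the other globins, the 2 most abundant genes of each list, genes called in either fit and the 5 genes most like the embryonic globins; Rhag, Hemgn and Adgre1 were named after their values were seen. Of the list symbols, 3 were matched through an older symbol and 2, Hbb-bh0 and Ahsp, were not found. The alternatives were RLE size factors, DESeq2 1.42.0, no filter, at least 10 counts in every library, library sizes without the globins, the replicate number as a block, and leaving out each library. Some genes the rule names are not reported here. Other samples of the study were not analysed here.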

Additional observations from a re-analysis of the deposited data

How the results depend on the processing

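With a replicate block the 7 tested genes gave 4 calls between the genotypes in place of 0, all lower in the mutant: Hbb-y (adjusted p = 0.0476, edgeR), Hba-x (0.0277), Alas2 (0.0362) and Klf1 (0.00852). The same block gave 17 calls among the other erythroid genes and 385 among all genes, in place of 0 and 9. Libraries of the same number deviated together from their group means (correlation 0.481 across genes). In the column names, the mutant and wild-type libraries of each number carry consecutive library identifiers, whose meaning is not given. The labels tie the numbers to no litter or day and there are only 2 pairs, so the pairing is not documented.

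Leaving out 1 library gave 0 to 2 calls among the 7 (2, Hbb-y and Hbb-bh1, without mutant library 1), 0 to 15 among the other erythroid genes (15 without mutant library 1) and 4 to 130 among all genes; the library left alone was assumed to vary like the other group. The log2 fold change ran from -1.54 to 0.30 for Hbb-y, from -1.77 to 0.37 for Hbb-bh1, from -1.78 to 0.50 for Hba-x and from -1.83 to 0.55 for Alas2, and turned positive without mutant library 2 (0.30, 0.37, 0.34 and 0.29) and without wild-type library 1 (0.24, 0.0070, 0.50 and 0.55). It stayed negative for Klf1 (-2.66 to -1.52), Epor (-1.44 to -0.36) and Gata1 (-0.84 to -0.35).

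DESeq2 gave 3 calls among the other erythroid genes and 105 among all genes, no filter 28 among all genes and a minimum of 10 counts 19. With the replicate number as the only factor, 0 of the 7 passed by number in place of 4; the cause was not tested. Of 69 alternative values of single genes, 55 kept direction and call, 6 gained a call and 8 reversed. The comparison of the alpha-globin ratio between genotypes and its alternatives were not run because its denominator was 0 or 1, nor was the number fit with a library left out, which leaves 0 residual degrees of freedom. Klf1, Epor and Gata1 rest on 8 to 130 counts per library, which limits their precision.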

Other observations

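Among 11464 genes with a mean of at least 5 CPM, the 5 whose centred log2 CPM over the 4 libraries lay nearest to the mean profile of Hbb-y, Hbb-bh1 and Hba-x were Vat1l, Myh7, Hsd3b6, Ptn and Gldn, at Euclidean distances of 0.524, 0.597, 0.615, 0.635 and 0.647. Hbb-y itself lay at 0.141 and Alas2, which was not part of the profile, at 0.377. Vat1l had 12.2 and 4.52 CPM in mutant libraries 1 and 2 and 12.9 and 8.10 CPM in wild-type libraries 1 and 2, and Myh7, a myosin heavy chain of heart and slow muscle, had 13.2 and 5.65 against 20.8 and 9.46 CPM. With 4 libraries, a likeness of this kind is a description of these libraries.

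The germ cell gene Stra8, which retinoic acid induces at the entry into meiosis, ran against the globins by replicate number, with 112 and 191 CPM in mutant libraries 1 and 2 and 167 and 190 CPM in wild-type libraries 1 and 2 (log2 fold change 0.47 in number 2, adjusted p = 0.0244, edgeR's quasi-likelihood test). Dppa5a, a gene of pluripotent and early germ cells, had 171 and 108 CPM in the mutant and 131 and 107 CPM in the wild type and was lower in number 2 (-0.48, adjusted p = 0.00888), as was the somatic factor Gata4 (328, 247, 294 and 231 CPM, -0.38, adjusted p = 0.0108).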
